A study of Mus musculus with 8 samples.

Results

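miR-223, miR-142-3p and miR-142-5p are microRNAs of blood-derived immune cells, and they were followed here in the livers of mice with diet-induced steatohepatitis that did or did not receive metformin. The members were the probes of a mouse miRNA array named mmu-miR-223, mmu-miR-142-3p and mmu-miR-142-5p, 3 of the 1135 miRNA probes on the array, each spotted 1 time. The treated group was 4 mice on a diet lacking methionine and choline (MCD), which also received metformin, an oral biguanide, at 2.4 mg/day in the drinking water for 15 weeks (MCD + metformin). The other group was 4 mice fed the MCD diet for the same 15 weeks without the drug (MCD). All were male C57BL/6N mice, 8 weeks old at the start, and all 8 livers had been exposed to the diet, so that the comparison holds no healthy liver. The MCD diet produces steatosis, inflammation and fibrosis without the obesity and insulin resistance of the human disease. Whole liver RNA of each mouse was hybridised to its own array, and the 4 animals per group came from larger feeding groups whose other members were not analysed here. In RNA of whole liver, fewer leukocytes and less of a miRNA per leukocyte cannot be told apart.

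miR-223 is made mainly in granulocytes, monocytes and macrophages, and in mice it restrains the production and activation of neutrophils. Its known targets include the transcription factor Mef2c and the inflammasome sensor Nlrp3. miR-142 is transcribed in nearly all cells of the hematopoietic lineage and very little elsewhere, and both arms of its hairpin are loaded into Argonaute, so that miR-142-3p and miR-142-5p act on different sets of mRNAs. Immune infiltration is a defining feature of steatohepatitis, and these miRNAs are therefore often read as traces of leukocytes in liver tissue.

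The mature sequences are shown because the seed, bases 2 to 8 in capitals, sets which mRNAs a miRNA can bind, and because the arms of miR-142 are near-complements of each other. They were taken from RefSeq (GRCm38.p6), in which the array's miR-223 is listed as miR-223-3p and the arms of miR-142 as miR-142a-3p and miR-142a-5p. All 3 members matched.
miR-223: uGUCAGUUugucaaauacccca
miR-142-3p: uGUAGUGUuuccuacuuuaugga
miR-142-5p: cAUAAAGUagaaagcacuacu
miR-223 lies on chromosome X (chrX:96242884-96242905, plus strand) and the arms of miR-142 lie on chromosome 11 (chr11:87756903-87756925 for miR-142-3p and chr11:87756867-87756887 for miR-142-5p, plus strand). The 3 seeds differ, and none of them was shared with another of the 1738 mature entries of the table. The shared hairpin of miR-142 is given below with both arms in capitals, the 5p arm first.
Mir142: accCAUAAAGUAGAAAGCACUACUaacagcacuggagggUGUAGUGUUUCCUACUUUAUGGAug
Over 10 bases in a row miR-142-3p is the exact reverse complement of miR-142-5p. RefSeq also lists a hairpin on the minus strand of the same place, Mir142b, whose mature miR-142b of 20 bases is complementary over its whole length to miR-142-3p and shares the 10-base run CAUAAAGUAG with miR-142-5p. There were 0 probes named for miR-142b, and whether the miR-142-5p probe also captures it was not tested.

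The arrays measured 1 colour, and the values are the median scanner signal of each spot on a linear scale, before subtraction of background. From 848 to 1018 of the 1135 probes exceeded the blank spots (mean + 2 SD of the blank spots of the array) on the MCD + metformin arrays and from 868 to 970 on the MCD arrays, and 0 miRNA probes were saturated. The stricter limit set by the negative control spots (mean + 2 SD) was exceeded by 198 to 284 probes on the MCD + metformin arrays and by 208 to 255 on the MCD arrays. The liver miRNA miR-122 had signals of 20702 to 27623 on the MCD + metformin arrays and 17416 to 19934 on the MCD arrays, so that the RNA carried the defining miRNA of hepatocytes. In the scanner files all MCD + metformin samples carried cell number 2 and all MCD samples cell number 1. The median local background was 139 ± 3.30 on the MCD + metformin arrays and 159 ± 2.94 (SD, n = 4 each) on the MCD arrays, with no overlap (exact permutation test, two-sided, P = 0.0286). What the cell number stands for is not stated, and it cannot be told apart from the drug. No test of 4 arrays against 4 by exact permutation can give a P below 0.0286.

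Of the 3 members, miR-223 differed most between the groups, miR-142-5p less, and miR-142-3p had nearly equal means. The signal of miR-223 was 522, 491, 312 and 456 in MCD + metformin livers (replicates 1 to 4). It was 540, 660, 863 and 468 in MCD livers. Of the MCD livers, 3 lay above every metformin liver, whereas MCD replicate 4 lay among the treated ones, and the groups overlapped. The probe exceeded the negative control limit in every liver.

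The mean signal of miR-223 was 445 ± 92.8 in MCD + metformin livers and 633 ± 173 in MCD livers (SD, n = 4 each). After background correction and scaling of the arrays, the log2 fold change was -0.60 (standard error 0.22), that is, 0.661-fold with a 95% interval of 0.477 to 0.916. The unadjusted P was 0.0163 from limma, the adjusted P over the 1070 probes tested was 0.391, and the exact permutation test gave P = 0.114. With the methods' t-test the standard error was 0.32 and the unadjusted P was 0.112. The difference did not pass the adjusted threshold. It rested on livers at either end: without MCD + metformin replicate 3, the lowest, the log2 fold change was -0.39 (unadjusted P = 0.0685 from limma), and without MCD replicate 3, the highest, it was -0.41 (unadjusted P = 0.0713 from limma).

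miR-142-5p, the arm processed from the 5′ side of its hairpin, followed the same order with a smaller step. Its signal was 373, 386, 329 and 366 in MCD + metformin livers. It was 466, 402, 479 and 349 in MCD livers. Again 3 of the 4 MCD livers were above all treated livers and MCD replicate 4 was below most of them. This probe, too, exceeded the negative control limit in every liver.

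The mean signal of miR-142-5p was 364 ± 24.4 in MCD + metformin livers and 424 ± 60.3 in MCD livers (SD, n = 4 each). The log2 fold change was -0.28 (standard error 0.14, 95% interval -0.57 to 0.02), with an unadjusted P of 0.0622 and an adjusted P of 0.563 from limma. The exact permutation test gave P = 0.171. Without MCD replicate 4 the log2 fold change was -0.42 (unadjusted P = 0.00514, adjusted P = 0.236 from limma), and without MCD + metformin replicate 2 it was -0.34 (unadjusted P = 0.0359, adjusted P = 0.614 from limma), both short of the adjusted threshold. Toward 0, it was -0.19 without MCD replicate 3 (unadjusted P = 0.189 from limma), -0.22 without MCD replicate 1 (unadjusted P = 0.164 from limma) and -0.24 without MCD + metformin replicate 3 (unadjusted P = 0.135 from limma).

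miR-142-3p, the arm on the 3′ side, was dim on this array. Its signal was 303, 300, 286 and 249 in MCD + metformin livers. It was 314, 274, 324 and 274 in MCD livers. For comparison, the blank spots averaged 216 to 229 on the MCD + metformin arrays and 224 to 233 on the MCD arrays. miR-142-3p exceeded the negative control spots on 3 of 4 MCD + metformin arrays and on 1 of 4 MCD arrays. The negative control limit was 276 to 301 on the MCD + metformin arrays and 297 to 315 on the MCD arrays. MCD replicate 1, at 314, fell just short of its limit of 315, so the counts do not follow the signals. On MCD + metformin replicate 4 miR-142-3p did not exceed the blank limit (mean + 2 SD).

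**Figure D1:**
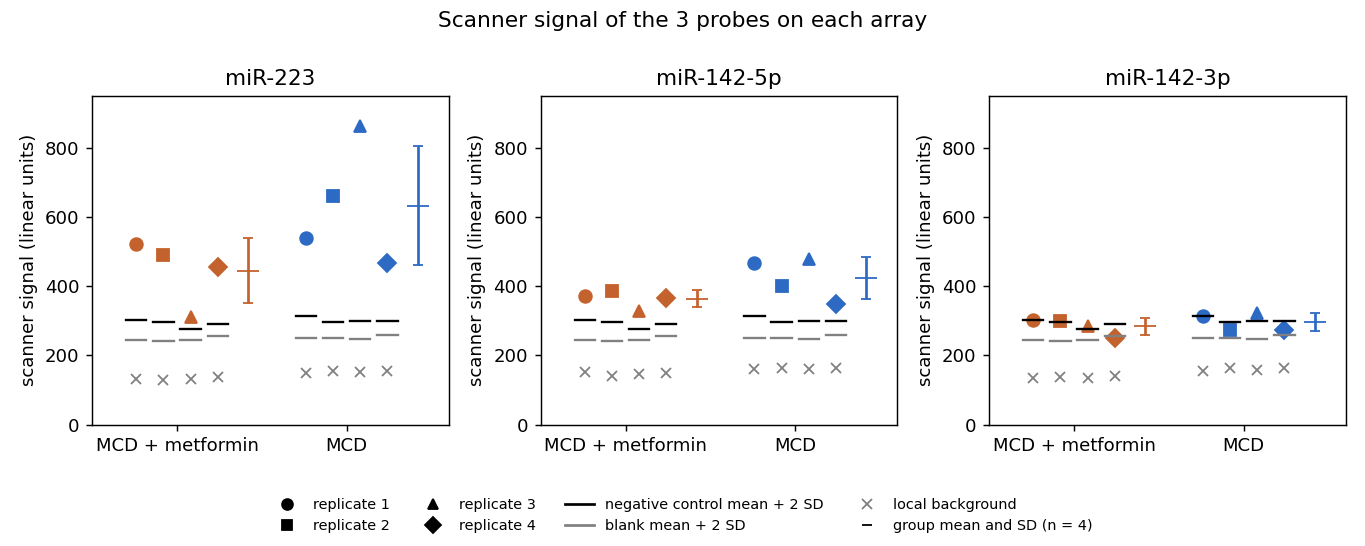
Scanner signal (linear units, vertical axis) of miR-223, miR-142-5p and miR-142-3p on each of the 4 MCD + metformin and 4 MCD arrays, with the group mean and SD (n = 4) to the right of each group. Black and grey bars mark the negative control and blank limits (mean + 2 SD) of that array and crosses the local background of the spot. miR-223 reaches 863 on MCD replicate 3, whereas miR-142-3p lies between 249 and 324, around the negative control limit.

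The mean signal of miR-142-3p was 285 ± 24.8 in MCD + metformin livers and 297 ± 26.3 in MCD livers (SD, n = 4 each). The log2 fold change was -0.01 (standard error 0.16) with a 95% interval of -0.34 to 0.32, unadjusted P = 0.964 and adjusted P = 0.994 from limma. The sign of this value is not fixed, since quantile normalization gave 0.04 and the data without MCD + metformin replicate 4 gave 0.14. A change of up to 1.25-fold or down to 0.791-fold lies within the interval and was not detectable with these arrays. The interval does not bound the change that could be missed, since the offset of the background correction shrinks the change of dim probes. With the blank spots subtracted the log2 fold change was -0.18 (standard error 0.46). In the deposited value table it was -0.20 (standard error 0.36).

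Of the 3 members, 0 passed an adjusted P of 0.05 from limma, as did 0% of the 1070 probes, and the methods' t-test likewise gave 0 after adjustment. Without MCD replicate 4, 9 probes passed in limma, all of them lower with metformin and no member among them. At an unadjusted P under 0.05, 1 member (miR-223) was lower with metformin, a side that held 3.08% of all probes, and 0 were higher, a side that held 6.36% (9.44% on either side). The 33 lower and 68 higher probes behind these shares became 50 and 43 with quantile normalization, and 60 and 24 with no scaling. In 0 of the 3 members were the groups free of overlap, against 4.77% of all probes (2.8% higher and 1.96% lower with metformin). The median log2 fold change of all probes tested was 0.03.

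Whether the members moved by different amounts was tested within arrays, where the scaling of an array drops out. The log2 value of miR-142-3p minus that of miR-142-5p was -0.59 ± 0.34 on the MCD + metformin arrays and -0.86 ± 0.13 on the MCD arrays (SD, n = 4 each), so that the change of the 3p arm was 0.27 (standard error 0.18) above that of the 5p arm. On the MCD + metformin arrays this difference was -0.40, -0.60, -0.30 and -1.06, the last being replicate 4, where miR-142-3p was not above the blank limit. The exact permutation test gave P = 0.2 (adjusted P = 0.286 over the 3 pairs). Without that array the difference was 0.43, and the smallest P this design then allows was reached (exact permutation test, P = 0.0286, adjusted P = 0.0857). A different change of the 2 arms was thus not shown over all 8 livers.

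miR-223 minus miR-142-3p was 1.07 ± 0.57 on the MCD + metformin arrays and 1.66 ± 0.41 on the MCD arrays (SD, n = 4 each), a difference of -0.59 (standard error 0.35; exact permutation test, P = 0.143, adjusted P = 0.286). miR-223 minus miR-142-5p was 0.48 ± 0.36 on the MCD + metformin arrays and 0.80 ± 0.36 on the MCD arrays, a difference of -0.32 (standard error 0.25; exact permutation test, P = 0.286, adjusted P = 0.286). None of the 3 differences passed the permutation test over all 8 livers.

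Across the 8 livers, miR-223 and miR-142-5p, which come from different chromosomes, had the highest correlation of the 3 pairs, past the adjusted threshold by rank and not by Pearson's r. MCD replicate 3 had the highest normalized value of both, and MCD + metformin replicate 3 the lowest of both. This was not particular to the members: among MCD livers, replicate 3 was also the highest for miR-200a, miR-200b and miR-199a-3p of other cell types. The hepatocyte miRNAs differed in this respect. Replicate 3 was the lowest MCD liver for miR-122 (14.00 against 14.10 to 14.18, normalized log2 values). For miR-194 it was the highest (11.35 against 10.88 to 11.12). Between miR-223 and miR-142-5p, Pearson's r was 0.76 (exact permutation test, P = 0.0213, adjusted P = 0.0638 over 3 pairs). Spearman's rho was 0.86 (exact permutation test, P = 0.0107, adjusted P = 0.0321). These tests permuted livers across both groups, so a difference between the groups that both miRNAs share counts toward r and rho. They therefore do not isolate variation between livers of a group. The 2 livers farthest from the median of miR-223 are MCD replicate 3 and MCD + metformin replicate 3. Without them r was 0.47 over the remaining 6, so that the relation rests in part on them. Without MCD replicate 3 alone, r was 0.61 (exact permutation test, P = 0.146). After subtraction of each group's mean r was 0.63, without a test. After the same subtraction, the median r with the probes past the negative control limit in every liver was 0.38 for miR-223 and 0.42 for miR-142-5p. Of those probes, 12.7% had an r over 0.8 with miR-223 and 3.82% with miR-142-5p, a limit above the r of this pair. The share of probes with an r or rho as high as that of the pair was not counted, before or after subtraction. Between miR-223 and miR-142-5p, r was 0.67 among the 4 MCD + metformin livers and 0.66 among the 4 MCD livers, too few for a test within a group.

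The arms of the miR-142 hairpin varied together less. Between miR-142-3p and miR-142-5p, r was 0.41 (exact permutation test, P = 0.301, adjusted P = 0.452) and rho was 0.52 (exact permutation test, P = 0.197, adjusted P = 0.243). Without the 2 livers farthest from the median of miR-142-3p, r was 0.13. Among the 4 MCD + metformin livers r was 0.06 and among the 4 MCD livers 0.89. Between miR-223 and miR-142-3p, r was 0.12 (exact permutation test, P = 0.777, adjusted P = 0.777) and rho was 0.48 (exact permutation test, P = 0.243, adjusted P = 0.243). Without the 2 livers farthest from the median of miR-223, r was 0.16. The highest normalized value of miR-142-3p was again that of MCD replicate 3.

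**Figure D2:**
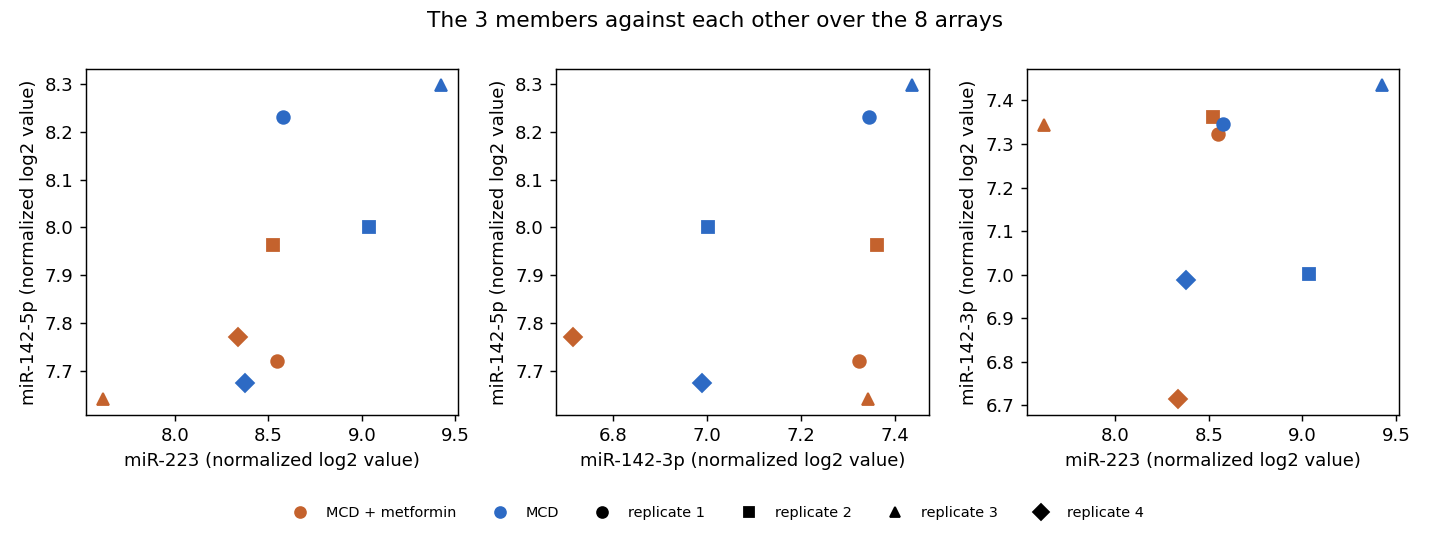
Normalized log2 values of the 3 members plotted against each other, 1 point per liver, coloured by group and shaped by replicate. miR-142-5p rises with miR-223 (r = 0.76 over 8 arrays), with MCD replicate 3 at the upper end and MCD + metformin replicate 3 at the lower end, whereas miR-142-3p follows neither closely.

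For each member, the miRNAs most like it were sought among the other probes that passed the negative control limit in every liver, by Pearson's r over the 8 arrays after subtraction of the group means. They are a description, given without a test, and all points share the array and its scaling. For miR-223 the highest r among 157 probes were those of miR-130a (0.91), let-7b (0.91), miR-30c (0.90), miR-28 (0.89) and miR-25 (0.87). For miR-142-5p they were those of miR-25 (0.89), miR-30e (0.85), miR-1894-3p (0.84), miR-494 (0.80) and miR-29a (0.80). miR-25 was in both of these lists. For miR-142-3p, among 158 probes, they were those of miR-122* (0.97), miR-203 (0.93), miR-139-5p (0.93), let-7f (0.91) and miR-29b (0.90). miR-342-3p, miR-146a and miR-150, the other listed leukocyte miRNAs that were candidates, were not among them. The median r over all candidates was 0.38 for miR-223, 0.42 for miR-142-5p and 0.21 for miR-142-3p. MCD + metformin replicate 4 was the lowest treated liver for miR-142-3p, which did not exceed the blank limit there. That liver was also the lowest treated one for miR-122*, miR-203, miR-139-5p, let-7f and miR-29b. For miR-122* the normalized log2 value was 9.67 against 9.95 to 10.05. How far the r of miR-142-3p rest on that liver was not tested.

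The passenger strand of miR-223, miR-223*, is cut from the same hairpin. Its signal was 250, 262, 238 and 248 in MCD + metformin livers. It was 232, 240, 256 and 270 in MCD livers. None of these values exceeded the negative control spots. The fitted log2 change was 0.13 (standard error 0.13, unadjusted P = 0.327 from limma), with overlapping groups.

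Of the 13 other miRNAs listed as abundant in leukocytes, miR-223* among them, limma placed 1 on the lower side and 0 on the higher side of an unadjusted P of 0.05, and 0 after adjustment. Their median log2 change was -0.04, against 0.03 for all probes, and 11 of the 13 had a value below 0, compared with 41.6% of all probes. Only miR-342-3p, miR-146a and miR-150 passed the negative control limit in every liver.

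miR-342-3p, expressed in lymphoid and myeloid cells, was the listed miRNA past the unadjusted threshold. Its signal was 320, 318, 294 and 321 in MCD + metformin livers. It was 379, 400, 425 and 345 in MCD livers, without overlap. The fitted log2 change was -0.42 (standard error 0.11, unadjusted P = 0.00217, adjusted P = 0.195 from limma).

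miR-146a, an inducible repressor of Toll-like receptor signalling, had signals of 402 to 481 in MCD + metformin livers and 428 to 584 in MCD livers. Its log2 change was -0.12 (standard error 0.13), and MCD replicate 3 was its highest liver too. miR-150, abundant in mature lymphocytes, had signals of 282 to 330 in MCD + metformin livers and 300 to 338 in MCD livers, with a log2 change of -0.01 (standard error 0.11). miR-155, which rises in activated immune cells, exceeded the negative control spots on 1 array, and its log2 change was -0.11 (standard error 0.12).

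miRNAs of other cells that whole liver holds were measured beside the members, and their part in the values of the members was not tested. All 8 hepatocyte miRNAs had a positive log2 fold change, 6 of them at an unadjusted P under 0.05 from limma and 0 after adjustment, with a median of 0.35. Over all probes tested, 6.36% were higher at that unadjusted threshold and 3.08% lower. The summed normalized level of the 8 hepatocyte miRNAs was 30018 to 39618 on the MCD + metformin arrays and 24184 to 26295 on the MCD arrays. This sum mostly restates miR-122, whose mean signal in MCD + metformin livers was 23617, against 4051 for miR-192, the next. Both endothelial and platelet probes, miR-126-3p (0.29, standard error 0.11) and miR-126-5p (0.32, standard error 0.12), were higher at the unadjusted threshold of limma. Their summed level, mostly that of miR-126-3p, was 4816 to 5655 on the MCD + metformin arrays and 3727 to 4648 on the MCD arrays.

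Red blood cell miRNAs can enter liver RNA with blood, as leukocyte miRNAs can. Of their 5 probes, 0 passed the unadjusted threshold. The summed level, mostly that of miR-451, was 1420 to 2336 on the MCD + metformin arrays and 1068 to 2257 on the MCD arrays. miR-451, alone among them in passing the negative control limit in every liver, had signals of 2012, 1671, 1397 and 1032 in MCD + metformin livers. It had 751, 1614, 1839 and 1866 in MCD livers, and MCD replicate 1 stood apart from the other MCD livers. The log2 fold change of miR-451 was 0.14 (standard error 0.28).

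Of 7 probes listed for stellate cells and fibroblasts, 3 were lower at the unadjusted threshold of limma and 6 had a value below 0, with a median log2 fold change of -0.35. The 3 were miR-21 (-0.70), miR-199a-3p (-0.70) and miR-199b* (-0.51), whereas miR-143 and miR-145 were at -0.08 and 0.07. The summed level of the 7 probes was 4874 to 7365 on the MCD + metformin arrays and 5523 to 11576 on the MCD arrays. Of 5 probes of the biliary epithelium, 1 was lower at the unadjusted threshold and all 5 had a value below 0, with a median of -0.43. The summed level was 804 to 2155 on the MCD + metformin arrays and 1175 to 3001 on the MCD arrays. The probe past the threshold was miR-141, which exceeded the negative control limit on 2 arrays. miR-200a and miR-200b exceeded that limit on all 8 arrays and had an unadjusted P of 0.156 and 0.245 from limma. Of 3 muscle probes tested, 0 passed, and 0 reached the negative control limit in every liver.

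**Figure D3:**
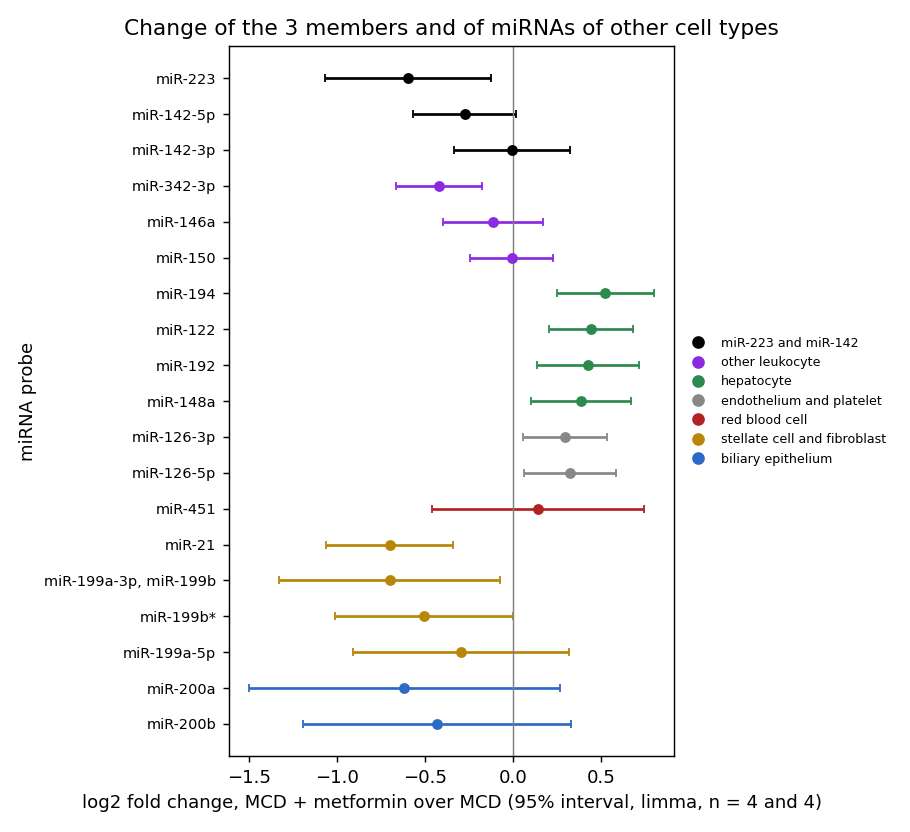
Log2 fold change of MCD + metformin over MCD (horizontal axis, 95% interval of limma, 4 and 4 arrays) for the 3 members and for listed miRNAs. Per cell type, up to 4 with the smallest P are shown among those that passed the negative control limit in every liver. The hepatocyte miRNAs miR-101b (0.26) and miR-122* (0.31) also passed that limit and are not shown. The same holds for miR-143 (-0.08) and miR-145 (0.07) of stellate cells and fibroblasts. miR-223 (-0.60) and miR-142-5p (-0.28) lie below 0 and miR-142-3p (-0.01) at 0, and the hepatocyte miRNAs shown lie between 0.38 and 0.52.

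The direction of miR-223 and of miR-142-5p was the same under each of 13 other ways of processing and without each of the 8 arrays. The log2 fold change of miR-223 ranged from -0.89 to -0.46 over these ways of processing and from -0.77 to -0.39 when an array was left out, and its adjusted P from limma or the methods' t-test was 0.161 or more in each of them. Its unadjusted P was under 0.05 in 11 of the 13 ways of processing, the exceptions being the methods' t-test and subtraction of the blank spots. For miR-142-5p the ranges were -0.42 to -0.17 over the ways of processing, 4 of which gave an unadjusted P under 0.05, and -0.42 to -0.19 when an array was left out. Over the ways of processing, the values farthest from 0 came from the deposited value table for both (-0.89 for miR-223 and -0.42 for miR-142-5p).

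**Figure D4:**
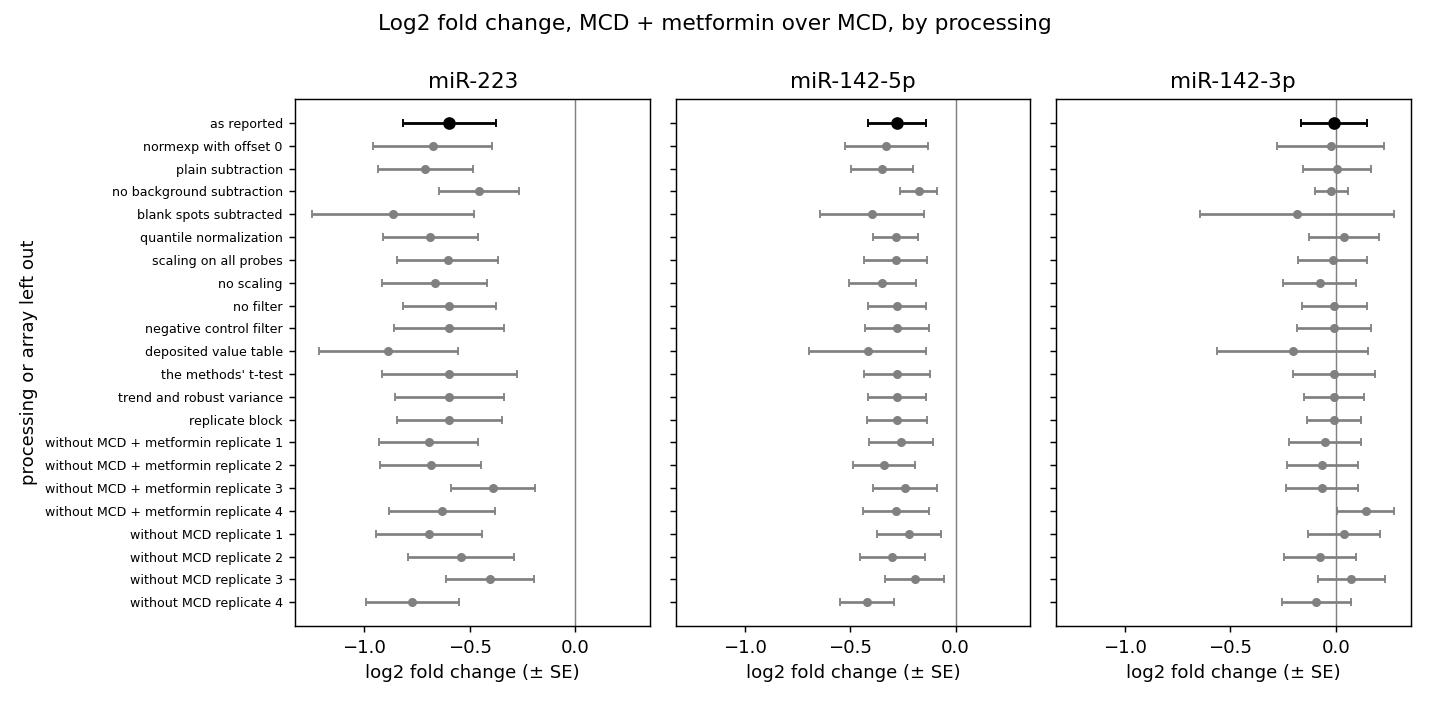
Log2 fold change of MCD + metformin over MCD (horizontal axis, ± standard error) for each member as reported (black) and under 13 other ways of processing and 8 omissions of an array (grey). miR-223 and miR-142-5p stay below 0 in each row, and miR-142-3p lies on both sides of 0, between -0.20 and 0.14. Rows for the filters, tests and replicate block repeat the reported log2 fold change by construction.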

How the data were processed

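The members and lists were chosen with earlier results of these data known. The authors labelled total liver RNA with Hy5, hybridised it to the mouse miRNA Oligo chip and extracted the spots with the 3D-Gene software. The deposited scanner files give each spot and its local background as a median intensity, linear and not normalized. The deposited value table also holds intensity, scaled by the authors. The methods name normalization to 28S RNA, which was not repeated.

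Values were computed with R 4.3.3 and limma 3.58.1. Background correction was by normexp (offset 50), which shrinks the change of dim probes. After log2 transformation each array was shifted to a common median of the 451 probes that were detected everywhere. Detection meant a signal over the blank limit (1818 blank spots per array), and a stricter limit came from 24 negative control spots, each limit being mean + 2 SD. limma (lmFit, eBayes; two-sided, no pairing) was run on the 1070 probes detected in 4 or more livers, with Benjamini-Hochberg adjustment. Precision is limited by the number of arrays.

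Exact permutation tests were two-sided, over 70 assignments or all pairings of livers irrespective of group. Functions were tested on simulated data. Named miRNAs were the members, the 5 most like each member, those sharing a seed (none), and from each list up to 4 by smallest P that passed the negative control limit in every liver. miR-223* and miR-155 were added after their values were seen. Groups and replicate numbers are those of the sample labels. Alternatives were 4 other background corrections, 3 scalings, 2 filters, the deposited table, 2 tests, a replicate block and leaving out each array.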

Additional observations from a re-analysis of the deposited data

Results flagged for a closer look

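Values of the 33 named probes were examined in both groups of 4 arrays for a single array far from the other 3. This was so in 3 of 66 groups, and chance alone gives about 1 in 20. miR-142-3p had a normalized log2 value of 6.72 on MCD + metformin replicate 4, against 7.32 to 7.36 on the other MCD + metformin arrays. miR-126-5p had 8.99 on MCD replicate 3, against 8.58 to 8.61 on the other MCD arrays. miR-451 had 9.17 on MCD replicate 1, against 10.54 to 10.78 on the other MCD arrays.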

How the results depend on the processing

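The log2 fold change of miR-142-3p, -0.01 as reported, was 0.0061 with plain background subtraction and 0.037 with quantile normalization, and it lay between -0.092 and 0.14 when 1 array was left out. The correlation of miR-223 and miR-142-3p was -0.049 with quantile normalization and -0.20 to 0.45 when 1 array was left out (-0.20 without MCD replicate 3). The correlation of miR-223 and miR-142-5p passed an adjusted P of 0.05 with plain subtraction (r = 0.79), with scaling on all probes (0.78) and with no scaling (0.83), and was 0.61 to 0.88 when 1 array was left out. The median of the other leukocyte miRNAs was -0.17 with the blank spots subtracted and -0.25 in the deposited value table, against -0.04. Under the stricter filter 34 probes passed an unadjusted P of 0.05 in place of 101, among 221 tested. After adjustment limma gave 0 to 9 probes when 1 array was left out, and 9 only without MCD replicate 4. The cause of these shifts was not tested, other than the smaller number of probes tested under the stricter filter. The log2 fold changes of miR-223 and miR-142-5p did not change direction or pass the adjusted threshold in any alternative run. The filters, tests and replicate block could not change that direction.

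No sign of pairing by replicate number was seen, although the labels do not state whether arrays were paired and these values cannot settle it. Deviations from the group means of same-numbered arrays correlated at 0.02, 0.03, -0.30 and -0.14, and 0 of 8 arrays correlated best with their own number. With the replicate number as a block, limma gave 0 probes after adjustment and 87 at an unadjusted P under 0.05 in place of 101, and adjusted P-values of 0.570 for miR-223, 0.659 for miR-142-5p and 0.994 for miR-142-3p. A block for slide or scan date was not run, since 0 columns of the files used name either. Signal over background limits miR-142-3p most, since 1 array lay under the blank limit.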
